A study of Mus musculus with 4 samples.

Results

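miR-296 and miR-298 are microRNAs (miRNAs) cut from neighbouring hairpins in the imprinted Gnas region of mouse chromosome 2. The mature arms described are miR-296-3p, miR-296-5p and miR-298-5p, 3 of the 1078 mature miRNAs in the deposited table. They were chosen by name, after their levels in these same libraries had been seen, so their differences between cell types are given as a description with no test. The study sequenced small RNA, labelled as 18 to 30 nt, from 4 kinds of C57BL/6J mouse cell, with 1 library for each kind. No library has a replicate, so no spread between samples can be given and every ratio below compares a pair of libraries.

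The HSC library came from hematopoietic stem cells, sorted from bone marrow as the c-Kit+, Sca1+ population without lineage markers. The imDC library came from immature dendritic cells, grown from bone marrow of mice aged 5 to 6 weeks for 6 days in GM-CSF at 10 ng/mL and IL-4 at 1 ng/mL. The maDC library came from mature dendritic cells from such a culture, given lipopolysaccharide (LPS) at 10 ng/mL from day 4 and harvested on day 8 by CD11c magnetic selection. The DCreg library came from regulatory dendritic cells, which are maDC re-plated over endothelial-like stroma of the spleen (ESSC) for 7 days or more and then re-selected on CD11c; the series describes them as making IL-10 and nitric oxide. No genetic change or transgene is named for any group. LPS, culture time and selection all differ between imDC and maDC, and stromal contact, added time and medium between maDC and DCreg, so their parts cannot be told apart, and neither can library preparation, since each cell type is 1 library.

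A miRNA hairpin is cut by Drosha and then Dicer into a short duplex. One strand of the duplex, or either, is loaded into an Argonaute protein, and bases 2 to 8 of the loaded strand, the seed, do most of the pairing with target mRNAs. Arms called 5p and 3p come from the left and right side of the hairpin. In an imprinted region a gene is read mainly from the copy inherited from 1 parent, and Mir296 and Mir298 have been described as read from the paternal copy together with the antisense noncoding RNA Nespas. Gnas itself encodes the stimulatory G protein alpha subunit, which couples receptors to cyclic AMP. Known targets of miR-296 include Ikbke, a kinase of NF-kB and interferon signalling. In endothelial cells they include the mRNA of HGS, a protein that sends growth factor receptors to degradation. The arms of miR-296 have different seeds, and the arm is not named here for these targets. Bace1 has been described as a target of miR-298.

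The mature sequences are shown because the findings below turn on where the reads of each arm end. They are RefSeq's (GRCm38.p6), written 5′ to 3′ with the seed in capitals, and for the 3 arms they equal the sequences of the deposited table.
miR-296-3p: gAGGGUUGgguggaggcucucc
miR-296-5p: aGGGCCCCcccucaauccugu
miR-298-5p: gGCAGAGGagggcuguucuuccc
All lie on the minus strand of GRCm38: miR-296-3p at chr2:174267058-174267079, miR-296-5p at chr2:174267093-174267113 and miR-298-5p at chr2:174267553-174267575. The hairpins are shown to place the arms, which are in capitals.
Mir296 hairpin: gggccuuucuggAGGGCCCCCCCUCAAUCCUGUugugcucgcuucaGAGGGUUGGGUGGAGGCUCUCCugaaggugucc
Mir298 hairpin: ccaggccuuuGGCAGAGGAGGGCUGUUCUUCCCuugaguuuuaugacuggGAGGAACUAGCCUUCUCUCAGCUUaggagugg
Mir296 spans chr2:174267047-174267125 and Mir298 spans chr2:174267504-174267585, with 378 nt between them. In the GENCODE annotation of that build no other gene overlaps either hairpin. Nespas (chr2:174281237-174295436, minus strand) ends 13651 nt from Mir298, and Gnas (chr2:174284320-174346744, plus strand) begins 16734 nt from it.

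All 3 arms are rich in G and C. GC content was 68.2% in miR-296-3p, 66.7% in miR-296-5p and 65.2% in miR-298-5p, against which 6.86%, 9.40% and 10.3% of the 1064 distinct mature sequences of the table were at or above. G alone made up 50% of the bases of miR-296-3p, a share that 4.42% of the sequences reach. miR-296-5p holds a run of 7 C, and 3 sequences of the table, itself included, hold a run of 1 base as long. The seeds differ between the arms, and no other entry of the table carries the seed of any of the 3. A read that begins with the first 18 bases of any arm matches the transcripts of that hairpin's gene alone; the first 16 bases of miR-296-3p also occur in transcripts of Dennd6b.

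The libraries held 4904897 to 6572858 reads, of which 80.2% to 84.0% could be assigned to a mature miRNA. Deposited table totals ran from 2725948 in DCreg to 5251069 in imDC, and DCreg was lowest in both measures. Levels are given in parts per 1000000 (ppm) of the library's total deposited value and, as a second measure, from reads recounted out of the deposited lists of unique sequences. Cell type was checked with marker miRNAs. The summed level of 4 HSC markers (miR-196b-5p, miR-126-3p, miR-10a-5p, miR-99a-5p) was 2669 ppm in HSC and 597 in imDC, then 1030 in maDC and 2400 in DCreg. Most of that sum is miR-10a-5p (2193, 532, 1018 and 2042 ppm); miR-196b-5p, at 251 ppm in HSC and 12.5 in DCreg, and miR-126-3p, at 49.2 and 0.367, were far lower in DCreg, and miR-99a-5p was higher there (175 and 345). The 4 dendritic and myeloid markers (miR-155-5p, miR-146b-5p, miR-223-3p, miR-142-5p) summed to 28626, 103611, 83067 and 46733 ppm in the same order. Most of that sum is miR-146b-5p (6182, 89225, 67585 and 36546 ppm), and miR-155-5p was also lowest in HSC (47.6, 2609, 1651 and 141 ppm). The other 2 went against the list's name: miR-223-3p (3438, 2264, 635 and 669 ppm) and miR-142-5p (18959, 9513, 13196 and 9377 ppm) were highest in HSC. The HSC library also held erythroid markers at 13763 ppm (1.56 to 19.0 in the dendritic libraries), muscle markers at 8676 ppm (40.6 to 259) and miR-150-5p of lymphocytes at 914 ppm (1.56 to 17.1), although it was sorted without lineage markers. Stromal markers stood at 461 ppm in HSC with 14.9 in imDC, and 57.6 in maDC with 175 in DCreg. Most of that sum is miR-143-3p (386, 12.9, 40.9 and 155 ppm). From maDC to DCreg miR-145-5p also had a higher value (2.68 and 9.90 ppm). miR-214-3p (13.6 and 9.54) and miR-199a-5p (0.447 and 0.367) had lower ones. Endothelial miR-126-5p stood at 71.7, 6.09, 1.34 and 1.10 ppm. Only miR-133a-3p of muscle was at 0, in maDC and DCreg. The part of these cells in the levels below was not tested, and in such bulk samples fewer cells that carry a miRNA and less of it per cell cannot be told apart.

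miR-298-5p was the most abundant of the 3 arms in every library, and the arms did not follow each other. miR-298-5p was highest in maDC, miR-296-3p was near the same level in HSC, imDC and maDC and 14.9-fold lower in DCreg than in maDC, and miR-296-5p was highest in imDC. The deposited value of miR-298-5p was 2380 in HSC and 5550 in imDC, then 10782 in maDC and 3232 in DCreg, which is 563, 1057, 2409 and 1186 ppm. It stood at rank 82, 60, 32 and 52 among the miRNAs of those libraries. The deposited value of miR-296-3p was 631, 751, 537 and 22, which is 149, 143, 120 and 8.07 ppm, at rank 142, 134, 113 and 294. DCreg is thus the only library in which miR-296-3p was far from the others. The deposited value of miR-296-5p was 41, 186, 78 and 18, which is 9.70, 35.4, 17.4 and 6.60 ppm, under 100 ppm in all 4 libraries. The second arm of the Mir298 hairpin, miR-298-3p, had a deposited value of 5 in imDC and 0 in the other libraries.

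The recount gave the same highest library for miR-298-5p and miR-296-5p and the same lowest one for all 3 arms, with some changes of order between. Intervals on recounted levels are exact Poisson 95% intervals, on ratios exact conditional ones, and on shares exact Clopper-Pearson ones; the reads carry no molecular identifiers, so all cover counting error only. miR-298-5p had 1729 reads in HSC (333 ppm, 317 to 349) with 3881 in imDC (737, 714 to 760), and 7010 in maDC (1269, 1240 to 1299) with 2621 in DCreg (666, 641 to 692). No pair of these intervals overlaps, but imDC stood above DCreg here and below it in the deposited values. miR-296-3p had 532 reads in HSC (102 ppm, 93.8 to 111) and 579 in imDC (110, 101 to 119), then 484 in maDC (87.6, 80.0 to 95.8) and 29 in DCreg (7.37, 4.94 to 10.6). HSC and imDC trade places against the deposited values; the interval of HSC overlaps those of both imDC and maDC, and that of DCreg lies far below all others. miR-296-5p had 17 reads in HSC (3.27 ppm, 1.91 to 5.24) with 96 in imDC (18.2, 14.8 to 22.3), and 38 in maDC (6.88, 4.87 to 9.44) with 10 in DCreg (2.54, 1.22 to 4.68). Only imDC stands clear there: HSC overlaps both maDC and DCreg. Deposited values over recounted reads were 1.80 to 2.41 for miR-296-5p and 0.759 to 1.30 for miR-296-3p, where the median miRNA with 100 reads or more had 1.21 to 1.40. The deposited table therefore puts the arms of Mir296 closer together than the reads do.

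**Figure D1:**
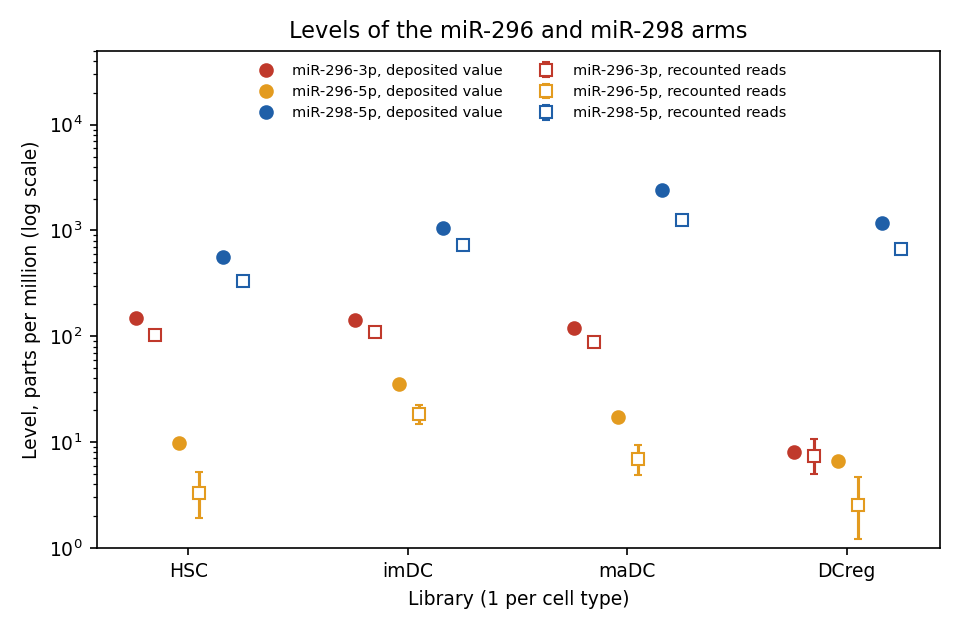
Level of each arm in ppm on a log axis, by library. Filled circles are deposited values scaled to their total, open squares recounted reads with exact Poisson 95% intervals; miR-298-5p is on top in all 4 libraries and miR-296-3p goes from 120 to 8.07 ppm between maDC and DCreg.

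For ratios between libraries, a miRNA counted as different when its deposited level differed 2-fold or more and reached 100 ppm in at least 1 of the libraries; miR-296-5p never reaches that level, so it has values but no call. From HSC to imDC, 187 miRNAs could be compared, of which 26.2% were called higher and 28.3% lower in imDC, with a median log2 ratio of -0.12. None of the arms was called. miR-298-5p was 1.88-fold higher in imDC in the deposited values and 2.21-fold (2.09 to 2.34) in the recount, so it lies on either side of the 2-fold line. miR-296-3p had a ratio of 0.958, and 1.07 (0.953 to 1.21) in the recount, an interval that includes no difference. miR-296-5p, below the level limit, was 3.65-fold higher in imDC and 5.57-fold (3.30 to 9.96) in the recount.

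From imDC to maDC, 160 miRNAs could be compared, and 9.38% were called higher and 45% lower in maDC. The median log2 ratio was -0.88, so most miRNAs took a smaller share of the maDC library. miR-298-5p was called higher, 2.28-fold, at rank 9 from the highest of the 160; in the recount it was 1.72-fold higher (1.66 to 1.79), under the 2-fold line. miR-296-3p was 1.19-fold lower and 1.25-fold (1.11 to 1.42) in the recount, above the median miRNA. miR-296-5p was 2.03-fold lower, and 2.65-fold (1.80 to 3.96) in the recount. Of the 3 consecutive pairs, the split between higher and lower calls depended on the scaling here: 15 miRNAs were called higher and 72 lower, but 30 and 37 when the libraries were scaled by the median of ratios, which moves every log2 ratio by 0.70. Under that scaling miR-296-3p changed sign, from -0.25 to 0.45, and miR-298-5p stood at 1.89 in place of 1.19.

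From maDC to DCreg, 138 miRNAs could be compared, and 20.3% were called higher and 28.3% lower in DCreg, with a median log2 ratio of -0.34. miR-296-3p was called lower, 14.9-fold, at rank 4 from the lowest of the 138. In the recount it was 11.9-fold lower (8.17 to 17.9), with 484 reads in maDC and 29 in DCreg. miR-298-5p was 2.03-fold lower, just past the line, and 1.90-fold (1.82 to 1.99) in the recount, just short of it. miR-296-5p was 2.64-fold lower, and 2.71-fold (1.32 to 6.09) in the recount, on 38 and 10 reads. All 3 arms thus had lower values in DCreg than in maDC, by unequal amounts.

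**Figure D2:**
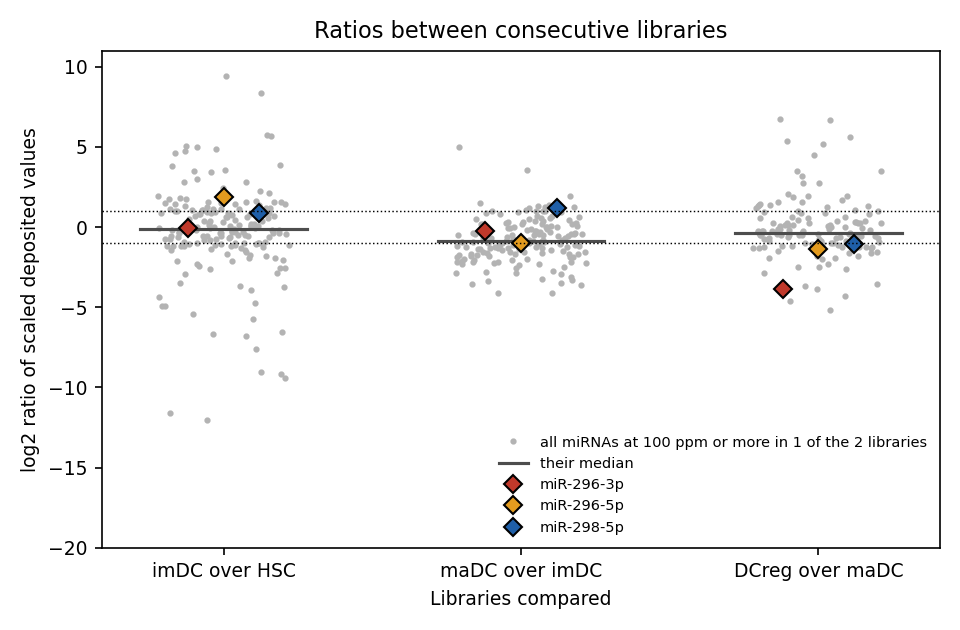
log2 ratio of scaled deposited values in 3 pairs of libraries. Grey points are the 187, 160 and 138 miRNAs at 100 ppm or more in 1 of the libraries, bars their medians, dotted lines the 2-fold limits and diamonds the 3 arms; miR-296-3p is at -3.86 in DCreg over maDC, with miR-298-5p at -1.02.

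The other 3 pairs share libraries with these, so they add no separate evidence. From HSC to maDC, where 21.7% were called higher, miR-298-5p was called higher at 4.28-fold (recount 3.82-fold, 3.62 to 4.02), while miR-296-3p had a ratio of 0.804. From HSC to DCreg, 19.4% were called higher and 56% lower. miR-298-5p was among the higher ones at 2.11-fold (recount 2.00-fold, 1.88 to 2.13) and miR-296-3p among the lower ones at 18.5-fold (recount 13.9-fold, 9.55 to 20.9). From imDC to DCreg, where 56% were called lower, miR-296-3p was called lower at 17.7-fold (recount 14.9-fold, 10.3 to 22.5). miR-298-5p had a ratio of 1.12 there, and 0.905 in the recount. miR-296-5p was 5.36-fold lower in DCreg than in imDC (recount 7.17-fold, 3.73 to 15.4). Scaling by the median of ratios raises every log2 ratio by 0.62 from HSC to maDC, 0.63 from HSC to DCreg and 0.72 from imDC to DCreg, which turns the -0.32 of miR-296-3p from HSC to maDC positive. Scaling to all reads lowers the ratios from HSC to DCreg by 0.28, which takes miR-298-5p, at 1.07, under the 2-fold line. Against both HSC and imDC, then, the neighbouring hairpins differ in DCreg in the deposited values: miR-296-3p far lower, and miR-298-5p higher than in HSC and near its level in imDC.

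Ratios within a library do not depend on how libraries are scaled. miR-298-5p exceeded miR-296-3p 3.77-fold in HSC and 7.39-fold in imDC, then 20.1-fold in maDC and 147-fold in DCreg. The recount gave 3.25 (2.95 to 3.59), 6.70 (6.14 to 7.33), 14.5 (13.2 to 15.9) and 90.4 (62.8 to 135), in the same order and with no overlap between intervals. Other neighbouring hairpins were compared in the deposited values alone. There the ratio of miR-298-5p to miR-296-3p rose 7.32-fold from maDC to DCreg, against 6.24-fold in the recount. Pairs were adjacent hairpins on the same strand at most 10000 nt apart, with leading arms at 100 ppm or more in 1 of the libraries compared. Arms listed for more than 1 hairpin were left out, so the pairs are not every cluster. Among them, Mir296 and Mir298 differed in log2 ratio by 2.84 from maDC to DCreg. The 9 other pairs had a median difference of 0.90 and a maximum of 2.63. Whether Mir296 and Mir298 would stand above them in the recount was not tested. From imDC to maDC the difference was 1.44, which 3 of 12 other pairs reached, and from HSC to imDC 0.97, which 2 of 11 others reached. These counts were made after the values had been seen and are a description.

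The balance between the arms of Mir296 also differed between libraries. The 3p arm exceeded the 5p arm 15.4-fold in HSC with 4.04-fold in imDC, and 6.88-fold in maDC with 1.22-fold in DCreg. The recount gave 31.3 (19.4 to 54.1), 6.03 (4.85 to 7.57), 12.7 (9.15 to 18.2) and 2.9 (1.37 to 6.67), higher throughout and in the same order. The HSC and maDC intervals lie above that of imDC, while that of DCreg overlaps imDC and rests on 29 and 10 reads. From HSC to imDC the recounted ratio moved by -2.38 on the log2 scale, and none of 80 other hairpins with 10 or more reads on each arm moved as far; their median absolute change was 0.65. From imDC to maDC it moved by 1.08, which 31 of 70 others reached. From maDC to DCreg it moved by -2.13, which 2 of 55 others reached, with a median of 0.77. Hairpins were set beside Mir296 in this way after its arm ratios had been seen. Only hairpins whose arms are listed for no other hairpin were used, with a further minimum on the reads of both arms together.

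**Figure D3:**
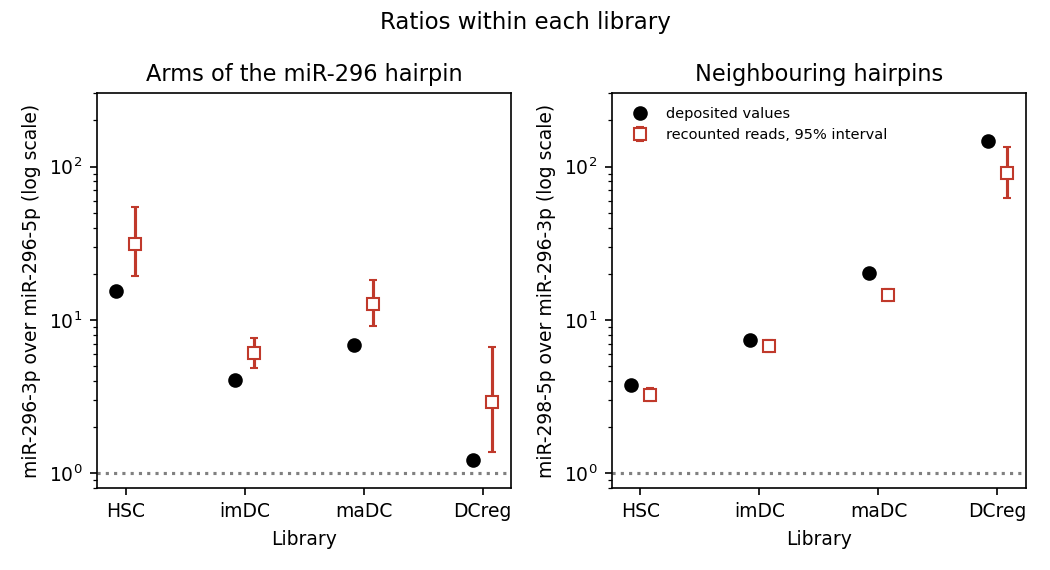
Ratios within each library on log axes: miR-296-3p over miR-296-5p (left) and miR-298-5p over miR-296-3p (right). Black circles are deposited values, open squares recounted reads with exact conditional 95% intervals; the right ratio is 3.77 in HSC and 147 in DCreg, and the left one is highest in HSC at 15.4 and lowest in DCreg at 1.22.

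The reads themselves show that the match of miR-296-3p to its hairpin almost never reached the annotated 3′ end. Positions are counted from 1 at the annotated 5′ end. The annotated arm ends at position 22, but the match to the hairpin ended 2 nt or more before that in 99.4% of reads in HSC and 98.6% in imDC, then 99.0% in maDC and 96.6% in DCreg. In the 3 libraries where it had 100 reads or more this was the highest share (rank 1) among the 169, 185 and 141 miRNA sequences with as many reads, whose medians were 16.2%, 11.5% and 5.53%. Most matches ended at position 18: 81.0%, 76.7%, 87.8% and 75.9% in the order HSC, imDC, maDC, DCreg. The reads can be longer than the match, and those of 21 to 23 nt made up 24.6%, 15.2%, 31.6% and 44.8%. Matches shorter than 16 bases were not counted, so earlier ends could not be seen. An end at position 18 is also the lower edge of the size range the labels give, and reads under 18 nt made up 6.20%, 16.9%, 5.17% and 10.3% of miR-296-3p; the part of size selection in these shares was not tested.

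Many of these reads carried bases after the match that the hairpin does not hold. Such added bases were found on 68.6% (64.5 to 72.5) of miR-296-3p reads in HSC with 38.3% (34.4 to 42.4) in imDC, and 81.8% (78.1 to 85.2) in maDC with 79.3% (60.3 to 92.0) in DCreg. imDC stands below the others, with an interval that overlaps none of them, and HSC below maDC. Over all miRNA sequences with 100 reads or more the median share was 17.4%, 15.1%, 18.9% and 17.5%. That median lies far below miR-296-3p and cannot show whether the low share in imDC is particular to it. Some other sequences with many added bases were also lower in imDC than in HSC and maDC. Examples are miR-24-3p (59.9% in HSC, 36.3% in imDC, 45.6% in maDC) and miR-361-5p (56.1%, 38.1%, 63.8%). Others were not, such as miR-3962 (83.3%, 86.9%, 80.0%). miR-296-3p was rank 4 of 169 in HSC, rank 20 of 185 in imDC and rank 1 of 141 in maDC. A was 75.4% to 80.8% of the added bases. The most frequent forms show the common end and the additions, in capitals.
18-nt form: gagggttgggtggaggct
form with 1 added base: gagggttgggtggaggctA
form with 2 added A: gagggttgggtggaggctAA
form with A and T: gagggttgggtggaggctAT
form with 3 added A: gagggttgggtggaggctAAA
The 18-nt form had 131 reads in HSC and 242 in imDC, then 62 in maDC and 3 in DCreg. It made up 41.8% of miR-296-3p reads in imDC against 24.6% in HSC and 12.8% in maDC. The form with 3 added A had 60, 27, 54 and 4 reads. A base change in the last positions of a read would also be counted as an addition, and incomplete removal of the sequencing adaptor was not tested.

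The 5′ end sets the seed, and some miR-296-3p reads began off the annotated base: 7.14% in HSC, 6.56% in imDC and 16.9% in maDC. Among all miRNA sequences with 100 reads or more these shares were rank 44 of 169, rank 55 of 185 and rank 23 of 141, where the upper quartile was 7.19%, 8.34% and 8.65%, so only maDC lies above it. Reads that began 1 base downstream made up 6.95% (4.94 to 9.46) in HSC with 6.56% (4.69 to 8.90) in imDC, and 16.9% (13.7 to 20.6) in maDC with 13.8% (3.89 to 31.7) in DCreg, on 37, 38, 82 and 4 reads. The share in maDC lies above those of HSC and imDC beyond counting error. The shifted form is shown for its changed seed, in capitals, which no entry of the table carries.
miR-296-3p from its second base: aGGGUUGGguggaggcucucc
With added bases, the form agggttgggtggaggctAAA had 12 reads in maDC.

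miR-296-5p, from the other side of the same hairpin, was read at its annotated length. Its annotated end at position 21 was the last matching base in 64.7% of 17 reads in HSC and 75% of 96 in imDC, then 92.1% of 38 in maDC and 100% of 10 in DCreg. Added bases were found on 11.8% of reads in HSC, 8.33% in imDC, 7.89% in maDC and on no read in DCreg, where 10 reads cannot show a low share. The commonest form is the whole arm, shown for contrast with the 3p arm.
miR-296-5p, whole arm: agggccccccctcaatcctgt
It had 11 reads in HSC with 66 in imDC, and 33 in maDC with 10 in DCreg.

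miR-298-5p resembled miR-296-3p more than miR-296-5p in the form of its reads. Its annotated end is position 23, and the match ended 2 nt or more before that in 95.7% of reads in HSC and 77.5% in imDC, then 85.2% in maDC and 95.8% in DCreg, at rank 3, 9, 5 and 3 of the sequences compared. Position 20 was the commonest end, with 49.0%, 35.1%, 44.2% and 47.1% of reads. The annotated end was reached in 1.5%, 10.6%, 7.56% and 1.18%, more often in imDC and maDC than in HSC and DCreg. Added bases were found on 56.4% (54.0 to 58.7), 53.1% (51.5 to 54.7), 56.1% (54.9 to 57.3) and 61.0% (59.1 to 62.9), with DCreg above the others. Matches that ended at position 17 made up 11.5%, 1.73%, 3.37% and 5.34% of reads, and 91.5% to 100% of these were counted as carrying additions. A base change just after that position would be counted in this way too, most often in HSC, and its part in these shares was not tested. A made up 60.2% to 68.4% of the added bases of miR-298-5p. T made up 26.4% in HSC with 22.4% in imDC, and 26.8% in maDC with 32.6% in DCreg. The leading forms are shown for the position of the end and for the added A or T, in capitals.
20-nt form: ggcagaggagggctgttctt
20-nt form with T: ggcagaggagggctgttcttT
20-nt form with A: ggcagaggagggctgttcttA
21-nt form with A: ggcagaggagggctgttcttcA
The 20-nt form had 417 reads in HSC and 750 in imDC, then 1698 in maDC and 524 in DCreg. Reads with only T added were 9.02% of miR-298-5p in HSC with 5.08% in imDC, and 7.95% in maDC with 12.9% in DCreg. Its 5′ end hardly varied: 97.7% to 99.3% of reads began at the annotated base.

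**Figure D4:**
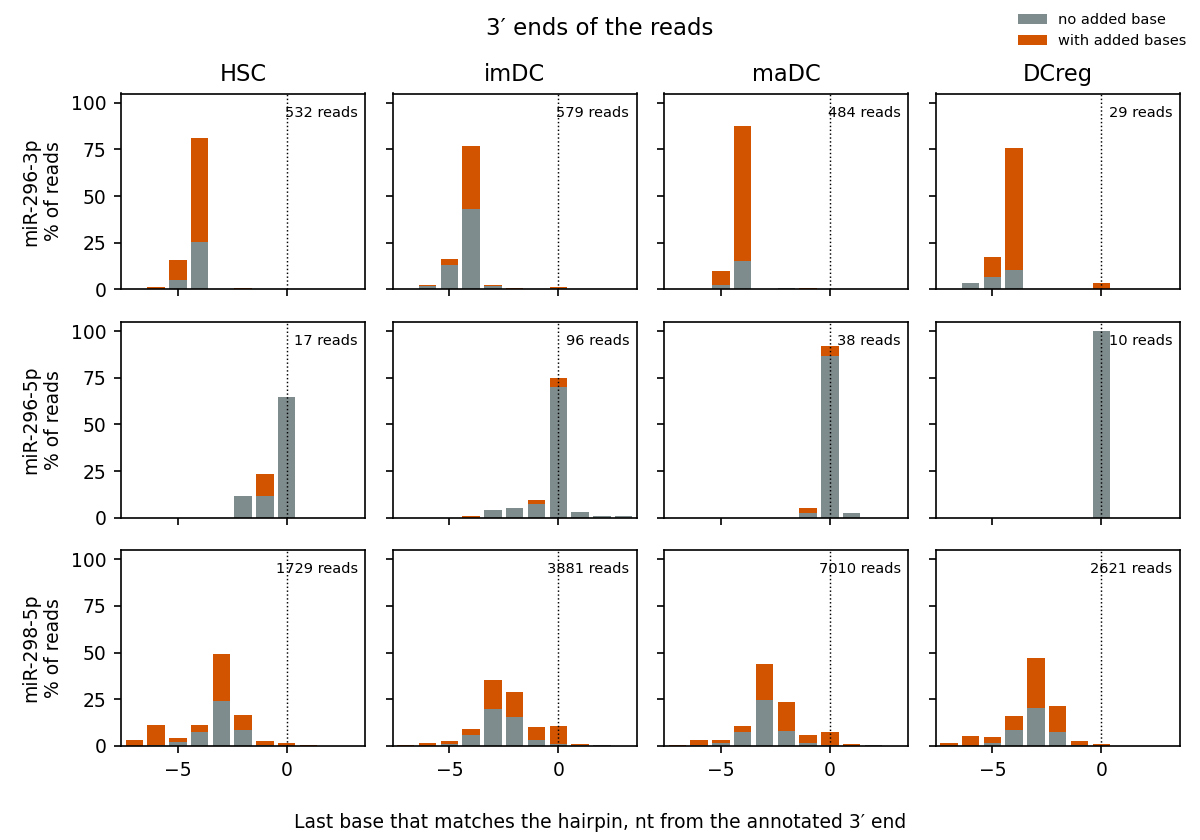
Position of the last base that matches the hairpin, in nt from the annotated 3′ end (dotted line), as the percentage of each arm's reads, by library. Grey is reads that end there and orange reads that carry added bases; miR-296-3p peaks 4 nt short, miR-296-5p at the annotated end and miR-298-5p 3 nt short.

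**Figure D5:**
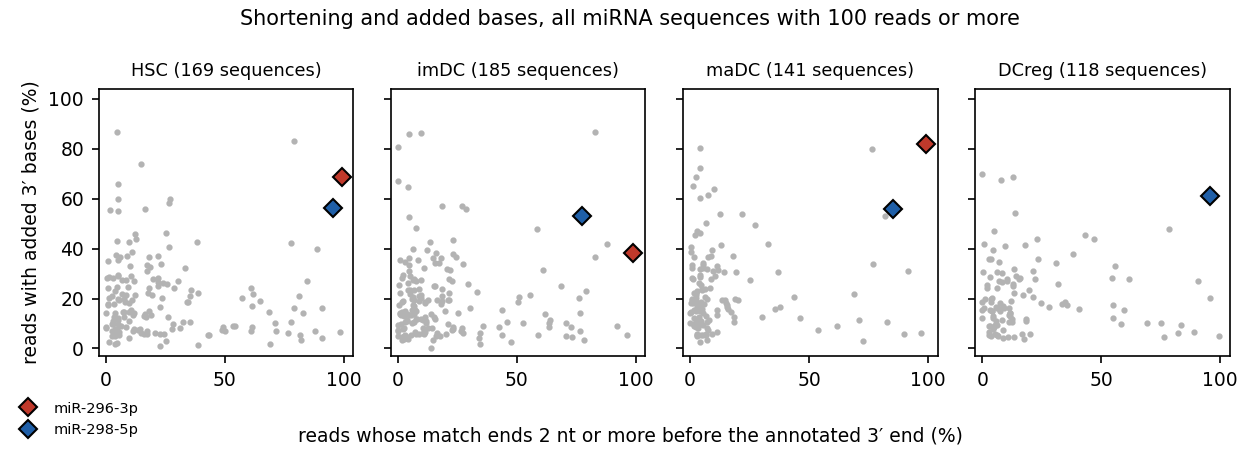
Each point is a miRNA sequence with 100 recounted reads or more in that library: the percentage of its reads whose match ends 2 nt or more before the annotated 3′ end, against the percentage with added 3′ bases. miR-296-3p is farthest right in HSC, imDC and maDC (99.4%, 98.6%, 99.0%) and has too few reads in DCreg; miR-298-5p is at 95.8% there.

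The miRNAs whose profiles over the 4 libraries were most like each arm are named by the distance between log2 levels centred on their mean, among miRNAs that reach 100 ppm in a library (197 or 198 candidates for each arm). For miR-296-3p the nearest was miR-223-5p, from a myeloid miRNA gene, at a distance of 1.00, with 702 ppm in HSC and 791 in imDC, then 329 in maDC and 58.0 in DCreg. miR-200c-3p (1.18), miR-142-3p (1.39), miR-1198-5p (1.42) and miR-181b-5p (1.45) followed. For miR-296-5p the nearest was miR-222-3p at 0.45, with 2839, 9752, 7240 and 2106 ppm, then miR-501-3p (0.70), miR-345-3p (0.71), miR-98-5p (0.83) and miR-342-5p (0.87). For miR-298-5p the nearest was miR-877-5p at 0.51, with 119, 151, 367 and 156 ppm, then miR-5114 (0.66), miR-221-3p (0.82), miR-29c-3p (0.87) and miR-505-5p (0.89). The arms were not near each other: seen from miR-296-3p, miR-296-5p was rank 45 at 2.65 and miR-298-5p rank 127 at 3.96.

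Of 36 listed miRNAs from the H19 and Igf2, Mest, Dlk1-Dio3 and Sfmbt2 regions, 33 were in the table, and only miR-669c-5p of the Sfmbt2 region reached 100 ppm. Its level was 406 ppm in HSC with 580 in imDC, and 867 in maDC with 312 in DCreg, highest in maDC as miR-298-5p was, with 1073, 2199, 2591 and 669 recounted reads. No other listed miRNA passed 8.76 ppm in the deposited values, but the recount gave miR-466a-3p of the same region 209, 205, 65 and 43 reads and miR-467a-5p 55, 383, 34 and 44, so for these the measures differ. miR-669c-5p was called lower from maDC to DCreg and was not called in the other consecutive pairs. With a deposited value above the floor of 3 in 1 of the libraries, 15, 10 and 8 listed miRNAs could be followed from HSC to imDC, imDC to maDC and maDC to DCreg. Their median log2 ratios were -1.45, 0.31 and 0.54, beside -0.07, -0.85 and -0.18 over all miRNAs above that floor. The recount was not used for these medians. Some listed miRNAs had reads, such as miR-127-3p with 23 in HSC. But miR-483-3p, miR-335-5p and miR-136-5p had 0 recounted reads in every library, and miR-434-3p, at 7.70 ppm in DCreg, had 0 there.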

How the data were processed

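The members, lists and alternatives were chosen with earlier results of these data known. Per the labels' protocols, small RNA under 30 nt was gel-purified, ligated, amplified for 12 cycles, sequenced on a Solexa instrument, filtered of other RNA classes and compared with miRBase release 19. Aligner and normalization method: not given in the sources used here. One table holds values the authors call normalized per the file headers; these deposited whole numbers are treated here as a score and not as raw counts. The authors also deposited for each library a list of unique sequences with its read count.

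Deposited values were summed over the 1195 entries (715 hairpins) per mature miRNA and scaled to 1000000. Log2 ratios used a pseudocount of 0.5. Reads were recounted by exact match to the mature sequence: at least 16 bases, a 5′ end within 2 nt, at most 5 unmatched 3′ bases, ties split equally. Added bases were judged against RefSeq hairpins. The recount was checked on simulated reads. These were trimmed less than most miR-296-3p reads were, so the check does not cover that form. With 1 library per cell type no test was run; intervals are 95% and cover counting error. Named miRNAs were the members, miRNAs on the same hairpins or with the same seed, the 5 nearest profiles of each, and listed imprinted miRNAs at 100 ppm. Others serve as markers or as examples of added bases, the latter picked after seeing the data. Alternatives were other read-matching rules, scalings, a pseudocount of 1 and no level filter; those with 18 matched bases and with reads of 18 to 30 nt were added after seeing the data. Tools were Python 3.11, numpy 2.4.6, scipy 1.17.1 and matplotlib 3.10.9.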

Additional observations from a re-analysis of the deposited data

Results flagged for a closer look

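Signal in data that no comparison used came from the Mir298 hairpin outside its annotated arms, where 14 reads in imDC and 4 in maDC began, and none in HSC or DCreg. The 4 reads in maDC are too few to separate maDC from the libraries with none. The deposited table also gives miR-298-3p a value of 5 in imDC, where the recount found 0 reads for that arm. Whether the reads that began away from the arm starts are the ones behind that value was not tested.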

How the results depend on the processing

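No paired analysis was possible because each cell type has 1 library and no test was run; leaving out a replicate was not possible either. The log2 ratio of miR-296-3p from maDC to DCreg was -3.51 to -4.16 under every alternative except reads of full annotated length, which rests on 1 read in each library and gave 0.69. For miR-298-5p the values were as follows. From HSC to imDC (0.91) they were 1.15 with recounted reads, 1.13 with 1 mismatch, 3.77 with full-length reads, 1.16 scaled to all reads, 0.82 by the median of ratios, 1.35 with 18 matched bases and 1.15 with reads of 18 to 30 nt. From imDC to maDC (1.19) they were 0.78, 0.79, 0.19, 0.95, 1.89, 0.75 and 0.77 in the same order, so its call was lost in all but 1 of those. From maDC to DCreg (-1.02) they were -0.93, -0.94, -3.33 and -1.32 for the first 4 and -0.92 with reads of 18 to 30 nt. Against the deposited arm ratio of Mir296, the recount, 1 mismatch and reads of 18 to 30 nt gave 31.3, 33.1 and 29.4 in HSC and 12.7, 12.0 and 12.1 in maDC; the recount and 1 mismatch gave 6.03 and 5.77 in imDC, and 2.9 and 2.91 in DCreg. The cause was not tested. Full-length reads alone put the 5p arm ahead in every library. The 3p arm over the 5p arm was then 0.0909, 0.0526, 0.0278 and 0.1, with libraries ordered as in the sections above. Only 1, 4, 1 and 1 full-length reads of miR-296-3p lie behind those values. On the same few reads miR-298-5p over miR-296-3p was 32, 112, 609 and 37, so its highest ratio moved from DCreg to maDC. Scaling to all reads shifts every log2 ratio by 0.25, -0.23 and -0.29 in the 3 consecutive pairs, and the median of ratios by -0.09, 0.70 and 0.01. The small miR-296-3p ratio from HSC to imDC changed sign with the recount (0.10) and with scaling to all reads (0.19). The share of miRNAs called stayed within 1.5 times: 54.5%, 54.4% and 48.6%, against 55.6%, 41.9% and 47.8% by the median of ratios. Depth limits miR-296-5p everywhere (10 to 96 reads) and miR-296-3p in DCreg (29 reads).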
